A study of Mus musculus with 5 samples.

Results

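The 36 genes described here encode the WNT, BMP and TGF-beta signals of the colonic mesenchyme, their secreted antagonists and a set of their target genes. They were chosen by name, with earlier results of these data known. Each was read from its brightest probe on 5 single-colour Agilent arrays of whole mouse colon. All 36 had a probe, and 35 passed the filter on dim probes, out of 32917 features tested, of which 17942 had a gene symbol. Rspo2 was the gene left out, since its probe was well above background on 1 array, that of Control replicate 2.

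WNT ligands with R-spondins, which bind LGR receptors and amplify the WNT signal, maintain the stem cells at the base of the colonic crypt. BMP ligands act against them and favour differentiation toward the crypt top, while stromal BMP antagonists such as gremlin shield the base. TGF-beta and activins signal through related receptors and SMAD proteins and act on fibroblasts, epithelium and immune cells alike.

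The arrays held RNA of 2 control mice and of 3 mice whose colon was taken 3 hr after they had received NT-3N intravenously. NT-3N activates the IL-11 receptor, and the study describes it as a modified human IL-11. All mice were wild-type C57BL/B6, as the labels spell the strain. No vehicle injection of the controls is stated, so an effect of the agonist cannot be told apart from one of the injection. The 5 arrays shared a slide and a scan time. In whole tissue, fewer cells of a type and less RNA per cell cannot be told apart.

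The arrays were similar in quality, with 70.6% to 72.9% of 56605 probes well above background and no saturated spot. All 9 epithelial markers, all 8 smooth muscle markers and all 10 fibroblast markers were above background on all 5 arrays, as were 90.6% of all features tested. The arrays differed in markers of some cell types and in the members. The log2 summed signal of the 5 fat markers was 13.55 and 12.74 on the Control arrays and 13.28, 12.56 and 11.95 on the NT-3N arrays. Control replicate 2 had a low log2 summed signal of B cell markers, at 10.19 against 12.14 to 12.40 on the other 4 arrays. Of these 7 markers 6 were higher in the NT-3N mice, 4 of them at least 2-fold, and none was called. Ms4a1 was low on both Control arrays, at 4.95 and 6.53 against 9.13 to 9.54 on the NT-3N arrays. Pax5 had a log2 fold change of -0.23. NT-3N replicate 1 was the lowest of the 5 arrays for 20 of the 35 niche signal genes (57.1%), and for 25.6% of all features. For 15 of the 35 (42.9%) it lay at least 0.5 log2 units below the mean of NT-3N replicates 2 and 3. This held for 9.3% of all features. It lay at least 0.5 above that mean for 5.71% of the members and 10.3% of all features. This array was thus singled out by the members' own values, so larger rises of members without it are no support for them.

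Of the niche signal genes, Rspo3 was higher in the NT-3N mice at an adjusted p under 0.05 in limma, and none was lower. Over all features 0.125% were called higher and 0.0182% lower by the same test. At an unadjusted p under 0.05, 4 members were higher (Rspo3, Wnt4, Inhbb and Grem1) and 4 were lower (Id3, Smad6, Bmp4 and Tgfb3), together 22.9% of the members beside 9.62% of all features, of which 4.95% were higher and 4.67% lower. At least 2-fold higher were 3 members (Rspo3, Wnt4 and Inhbb), or 8.57%, beside 1.39% of all features, and no member was at least 2-fold lower. Because the list was chosen with earlier results of these data known, a share above that of all features is no test of the list. The arrays of the groups did not overlap for 11 members, or 31.4%, which was near the 28.4% of all features. All members have a gene symbol. Of the 17942 features with a symbol, the groups did not overlap for 5548. An unadjusted p under 0.05 was found for 2128 of them, and 277 were at least 2-fold higher. The median log2 fold change of the 35 members was -0.04, beside -0.02 for all features, and their range ran from -0.59 (Id3) to 1.58 (Wnt4).

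**Figure D1:**
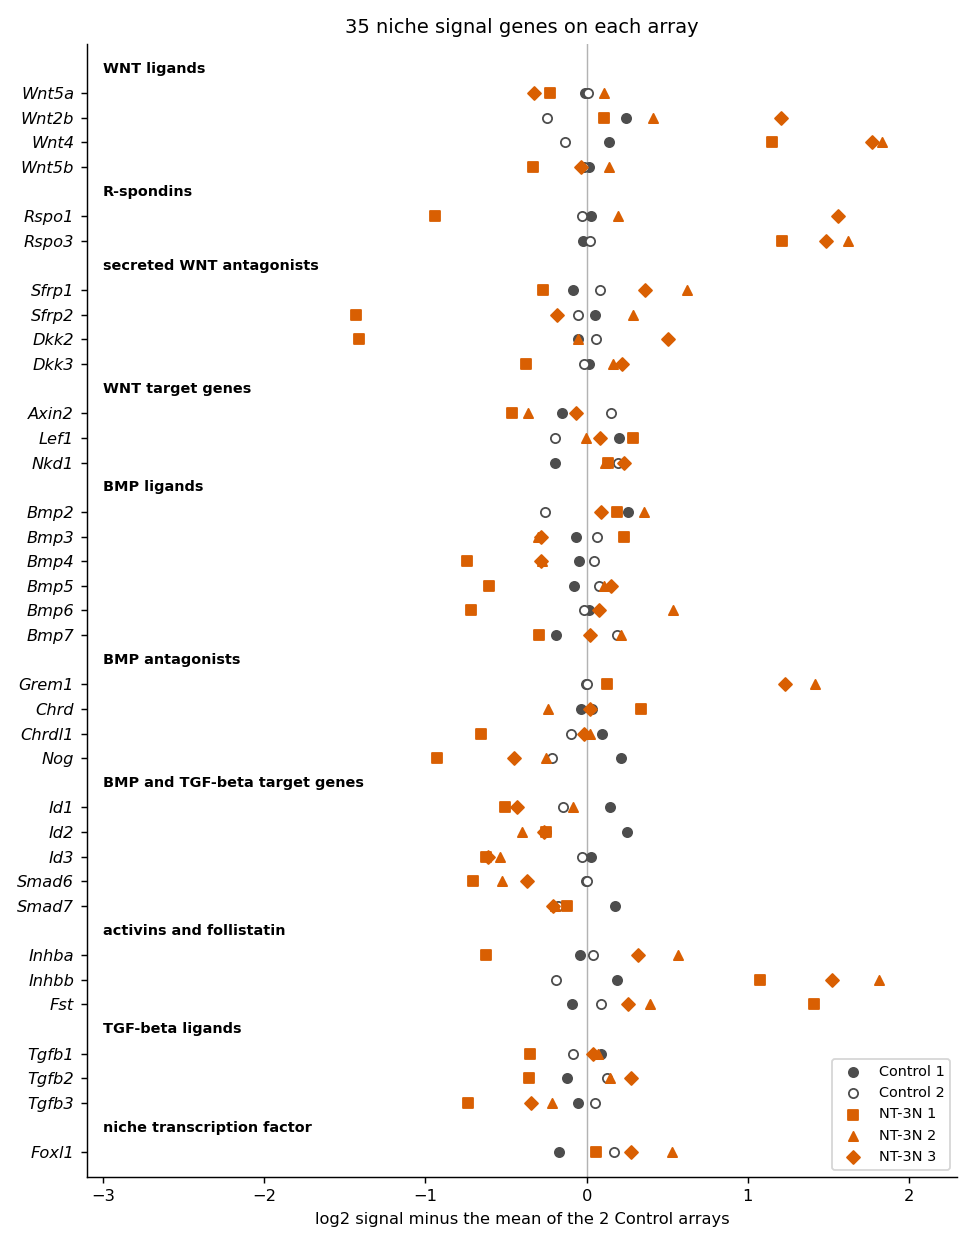
Log2 signal of the 35 tested members on each array, minus the mean of the 2 Control arrays, grouped by role. Wnt4, Rspo3 and Inhbb lay at least 1 log2 unit above the Control mean on all 3 NT-3N arrays, and the square of NT-3N replicate 1 was the leftmost point for 20 of the 35 genes.

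The promoters of the members with an unadjusted p under 0.05 are shown where RefSeq (GRCm38.p6) lists them, as the 250 bases before the transcript start, to place the genes with the clearest differences in their sequence context. Of the 36 members 21 had a listed window, and Rspo3 and Tgfb3 were not among them. Each window was searched on both strands for TTCNNNGAA, bound by STAT factors, which act downstream of IL-11 receptors, for GGCGCC, found in BMP-responsive SMAD elements, and for CTTTGA, a TCF/LEF core. Capitals mark a match, and sequences run 5′ to 3′ on the strand of the gene.
Wnt4, chr4:137277385-137277634, plus strand: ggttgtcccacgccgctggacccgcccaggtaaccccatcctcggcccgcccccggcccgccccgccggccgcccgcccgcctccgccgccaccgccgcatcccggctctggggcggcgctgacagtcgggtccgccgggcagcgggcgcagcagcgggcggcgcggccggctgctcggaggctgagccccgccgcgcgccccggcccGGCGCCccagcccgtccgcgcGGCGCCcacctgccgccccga
Grem1, chr2:113758649-113758898, minus strand: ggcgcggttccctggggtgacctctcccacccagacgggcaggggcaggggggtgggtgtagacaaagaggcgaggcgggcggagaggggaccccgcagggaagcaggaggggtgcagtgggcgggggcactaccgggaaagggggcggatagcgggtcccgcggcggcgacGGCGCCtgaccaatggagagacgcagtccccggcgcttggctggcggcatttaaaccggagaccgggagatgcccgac
Inhbb, chr1:119422249-119422498, minus strand: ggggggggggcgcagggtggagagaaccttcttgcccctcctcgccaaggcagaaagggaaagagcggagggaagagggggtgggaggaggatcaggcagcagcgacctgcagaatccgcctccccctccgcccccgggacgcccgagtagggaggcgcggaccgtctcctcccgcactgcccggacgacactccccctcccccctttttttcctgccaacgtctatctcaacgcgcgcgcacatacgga
Bmp4, chr14:46390670-46390919, minus strand: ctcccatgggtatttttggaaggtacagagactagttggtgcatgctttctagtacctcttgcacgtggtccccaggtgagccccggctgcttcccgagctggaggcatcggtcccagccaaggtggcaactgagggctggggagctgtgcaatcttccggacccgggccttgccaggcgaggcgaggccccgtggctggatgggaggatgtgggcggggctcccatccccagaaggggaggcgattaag
Id3, chr4:136143572-136143821, plus strand: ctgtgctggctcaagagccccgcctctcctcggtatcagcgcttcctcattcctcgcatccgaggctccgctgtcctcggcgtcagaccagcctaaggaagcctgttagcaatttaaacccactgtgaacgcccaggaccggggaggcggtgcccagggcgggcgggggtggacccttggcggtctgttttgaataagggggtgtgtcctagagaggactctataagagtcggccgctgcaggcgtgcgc
Smad6, chr9:64022060-64022309, minus strand: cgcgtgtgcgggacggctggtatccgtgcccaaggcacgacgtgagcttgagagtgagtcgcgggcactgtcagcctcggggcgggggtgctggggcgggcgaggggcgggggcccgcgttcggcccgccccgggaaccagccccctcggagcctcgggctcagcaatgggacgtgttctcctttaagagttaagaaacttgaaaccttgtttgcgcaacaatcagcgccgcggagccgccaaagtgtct

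Among these 6 windows, GGCGCC occurred in those of Wnt4, at 42 and 21 bases before the start, and Grem1, at 78 bases before it. Neither TTCNNNGAA nor CTTTGA occurred in the 6 windows. Over all 32851 windows of this length, 7.02% held TTCNNNGAA, 9.59% held GGCGCC and 13.8% held CTTTGA. Of the 26 windows of the 21 listed members, 1 held TTCNNNGAA (Wnt5b), 8 held GGCGCC (in 7 genes) and 3 held CTTTGA. The Wnt4 window was the richest in G and C of the 6, at 85.2%, and the shares are not adjusted for base composition.

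Among the WNT ligands and their amplifiers, Rspo3, an R-spondin made by colonic stroma, rose 2.71-fold. Its log2 signal was 9.04 and 9.09 on the Control arrays and 10.28, 10.69 and 10.55 on the NT-3N arrays. All 3 NT-3N arrays were more than 1 log2 unit above both controls. This gave a log2 fold change of 1.44 ± 0.14 (SE; 95% interval 1.10 to 1.78), with a limma adjusted p of 0.0345. NT-3N replicate 1 was singled out by low values of the members themselves, so a larger rise without it is no support. Without it the log2 fold change was 1.55 with a limma adjusted p of 0.0179. With any other single array left out it lay between 1.35 and 1.46 with a limma adjusted p between 0.0858 and 0.233, so the call was lost at a similar size. An exact permutation test on these 5 arrays cannot go below p = 0.1.

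Wnt4, a ligand with roles in kidney and gonad development, had the largest difference of all members. Its log2 signal was 9.05 and 8.77 on the Control arrays and 10.06, 10.74 and 10.68 on the NT-3N arrays. The groups did not overlap, and NT-3N replicate 1 was the lowest of its group. The difference was 1.58 ± 0.23 (SE) on the log2 scale, or 3.00-fold, with a limma adjusted p of 0.0911, which missed the threshold. Without NT-3N replicate 1 it was 1.80 with a limma adjusted p of 0.0195, and without any other single array it lay between 1.45 and 1.72 with a limma adjusted p between 0.23 and 0.386.

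The other WNT ligands and R-spondins did not pass the test. Wnt5a, a ligand of noncanonical WNT signalling, had a log2 fold change of -0.15 (95% interval -0.51 to 0.21), and its relative Wnt5b had -0.08 (-0.46 to 0.30). Wnt2b, a canonical ligand of the niche, had 0.58, but its probe was dim and well above background on 1 of the 2 Control arrays. Rspo1 had the widest spread of the members. Its log2 signal was 6.21 and 6.15 on the Control arrays and 5.24, 6.38 and 7.73 on the NT-3N arrays, so that the NT-3N mice lay on both sides of the controls and the log2 fold change of 0.27 had an interval of -1.32 to 1.86. Rspo2, not tested, had log2 signals of 2.67 and 3.82 on the Control arrays and 1.58, 3.51 and 3.78 on the NT-3N arrays, with the groups overlapping.

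None of the 4 secreted WNT antagonists passed the test or separated the groups. The log2 fold changes were 0.24 for Sfrp1 and -0.44 for Sfrp2, which bind WNT proteins, -0.32 for Dkk2, a ligand of LRP co-receptors, and 0.003 for Dkk3. Sfrp2 and Dkk2 were low on NT-3N replicate 1 alone, which differed from the mean of the other 2 NT-3N arrays by -1.48 and -1.64 log2 units. Without that array both differences turned positive, to 0.05 and 0.22. The 3 WNT target genes had log2 fold changes of -0.30 (Axin2, a feedback inhibitor in the destruction complex), 0.12 (Lef1, a transcription factor of the pathway) and 0.16 (Nkd1, a feedback inhibitor), and their groups overlapped. The 95% interval of Axin2 ran from -0.71 to 0.12.

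**Figure D2:**
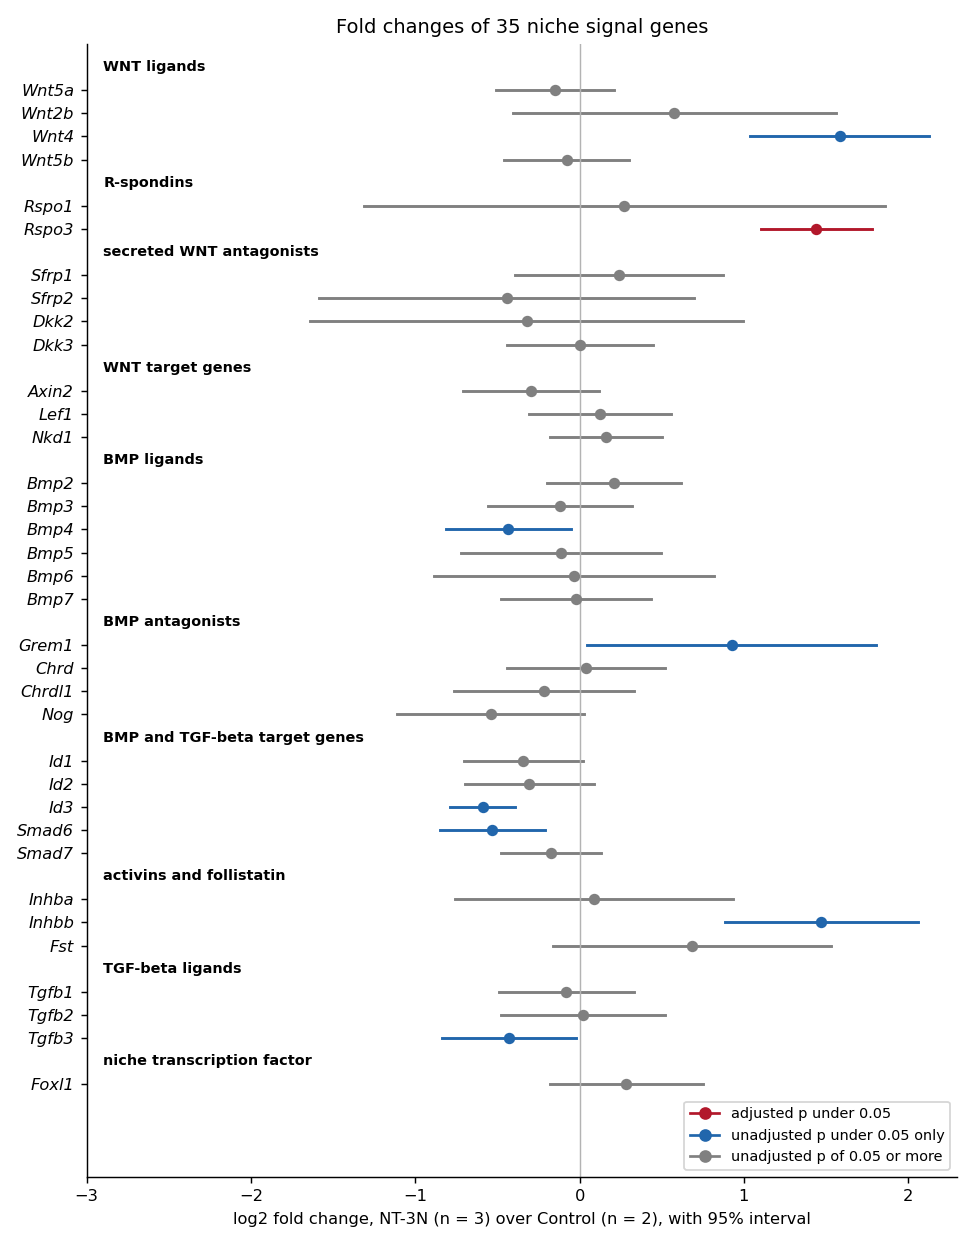
Log2 fold change of the 35 tested members, NT-3N (n = 3) over Control (n = 2), with the 95% interval of the limma fit, grouped by role. Rspo3 passed an adjusted p under 0.05, and the intervals of Wnt4, Inhbb, Grem1, Id3, Smad6, Bmp4 and Tgfb3 also left out 0.

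All 5 target genes of BMP and TGF-beta signalling were lower in the NT-3N mice, though none passed the adjusted threshold. Their median log2 fold change was -0.34, beside -0.02 for all features, of which 53.6% were lower. This direction held for all 5 under both other scalings of the arrays, and the median was then -0.33 and -0.31. It leaned on Control replicate 1. The mean over these genes of the log2 signal minus each gene's mean was 0.35 there and 0.11 on Control replicate 2. On the NT-3N arrays it was -0.21, -0.12 and -0.14. With 1 array left out, the highest log2 fold changes were -0.20 for Id1, -0.05 for Id2 and 0.004 for Smad7. For Id3 and Smad6 they were -0.56 and -0.45.

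Id3, an inhibitor of basic helix-loop-helix factors and an immediate target of BMP signalling, was the most uniform of them. Its log2 signal was 12.13 and 12.08 on the Control arrays and 11.49, 11.57 and 11.50 on the NT-3N arrays. The 2 groups stood apart by several times their spread, and NT-3N replicate 1 was close to its group here. The log2 fold change was -0.59 ± 0.08 (SE), with a limma adjusted p of 0.0865, and it stayed between -0.62 and -0.56 when any 1 array was left out.

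Smad6, an inhibitory SMAD that BMP signalling induces, had log2 signals of 9.14 and 9.15 on the Control arrays and 8.44, 8.62 and 8.78 on the NT-3N arrays. The groups did not overlap. Its log2 fold change was -0.53 ± 0.13 (SE), with a limma adjusted p of 0.301. Id1 and Id2, relatives of Id3, had log2 fold changes of -0.34 and -0.31. The groups overlapped for Id1 and not for Id2, whose values on Control replicate 2 and NT-3N replicate 1 were both 9.97. Smad7, the inhibitory SMAD of both branches, had -0.17 with overlapping groups, and without Control replicate 1 the difference was 0.004.

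Of the 6 BMP ligands, Bmp4, the main stromal BMP of the gut, was lower at an unadjusted p of 0.0315. Its log2 signal was 12.27 and 12.36 on the Control arrays and 11.58, 12.04 and 12.03 on the NT-3N arrays. All 3 NT-3N arrays were below both controls, and NT-3N replicate 1 was the lowest. The log2 fold change was -0.43 ± 0.16 (SE), with a limma adjusted p of 0.475, and it was -0.28 without NT-3N replicate 1, with a limma adjusted p of 0.217. The second probe of Bmp4 gave -0.42. The other 5 ligands had log2 fold changes between -0.12 (Bmp3) and 0.21 (Bmp2), with Bmp5, Bmp6 and Bmp7 between them, and all overlapped.

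The BMP antagonists differed among themselves. Grem1, the gremlin of the fibroblasts around the crypt base, had log2 signals of 10.80 and 10.81 on the Control arrays and 10.93, 12.22 and 12.03 on the NT-3N arrays. NT-3N replicates 2 and 3 were more than 1 log2 unit above the controls, whereas NT-3N replicate 1 was barely above them. Over all arrays the log2 fold change was 0.92 ± 0.37 (SE), with a limma adjusted p of 0.501. Without NT-3N replicate 1 it was 1.32 with a limma adjusted p of 0.0196. Without another NT-3N array it was 0.68 or 0.77, so the call for this gene depended on which mice were kept. NT-3N replicate 1 was singled out by the members' own values, so the call without it is no support.

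Nog, which encodes noggin, had log2 signals of 8.63 and 8.20 on the Control arrays and 7.49, 8.17 and 7.97 on the NT-3N arrays. The groups were apart by less than 0.1 log2 units at their nearest values. The log2 fold change was -0.54 ± 0.24 (SE), with a limma adjusted p of 0.538, and it was -0.33 when Control replicate 1 was left out and -0.35 when NT-3N replicate 1 was. Chrd (chordin) and Chrdl1 (a chordin-like antagonist) had log2 fold changes of 0.04 and -0.22, with overlapping groups.

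**Figure D3:**
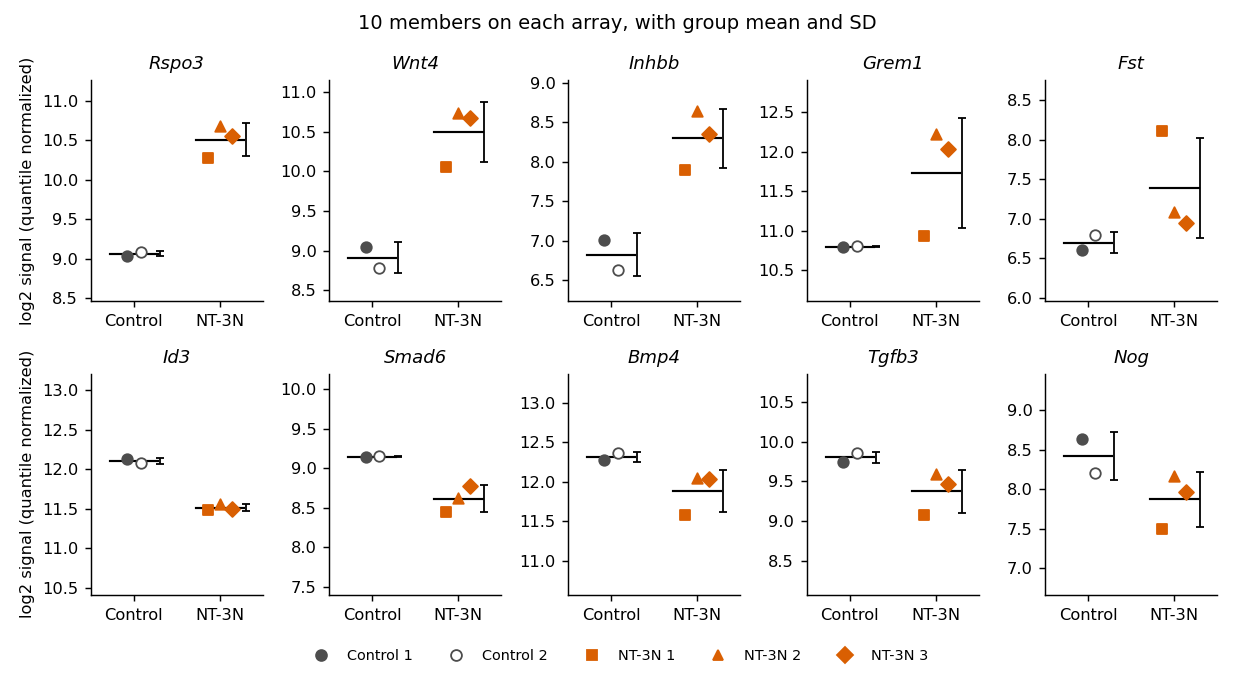
Log2 signal on each array of the 10 members with an unadjusted p under 0.05 or with groups apart and a log2 fold change of at least 0.5 in size. Lines are group means and bars are the SD; all panels span the same log2 range. Rspo3, Wnt4 and Inhbb were high on all 3 NT-3N arrays, Grem1 on 2 of them and Fst on 1.

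Among the activins and follistatin, Inhbb, the beta-B subunit of activin B and inhibin B, had log2 signals of 7.02 and 6.63 on the Control arrays and 7.90, 8.64 and 8.35 on the NT-3N arrays. The groups were apart on every array. Its log2 fold change was 1.47 ± 0.24 (SE), or 2.77-fold, with a limma adjusted p of 0.134. It lay between 1.28 and 1.67 when any 1 array was left out, but the adjusted p stayed over 0.05 in each case. Inhba, the subunit of activin A, had a log2 fold change of 0.09 with a wide interval of -0.76 to 0.93, and its NT-3N arrays lay on both sides of the controls.

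Fst, follistatin, which binds and blocks activins, had log2 signals of 6.61 and 6.79 on the Control arrays and 8.11, 7.09 and 6.95 on the NT-3N arrays. It was high on NT-3N replicate 1, the array that was lowest for 20 of the 35 members, and little above the controls on the other 2 arrays. The log2 fold change was 0.69 ± 0.35 (SE), with a limma adjusted p of 0.599, and it was 0.32 without that array.

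Of the TGF-beta ligands, Tgfb3 had log2 signals of 9.75 and 9.86 on the Control arrays and 9.07, 9.59 and 9.46 on the NT-3N arrays. All NT-3N arrays were below both controls. Its log2 fold change was -0.43 ± 0.17 (SE), with a limma adjusted p of 0.501, and it was -0.28 without NT-3N replicate 1. Tgfb1 and Tgfb2 had log2 fold changes of -0.08 and 0.02 and overlapped. Foxl1, a transcription factor of subepithelial niche cells, had 0.28 (-0.18 to 0.75), also with overlap.

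**Figure D4:**
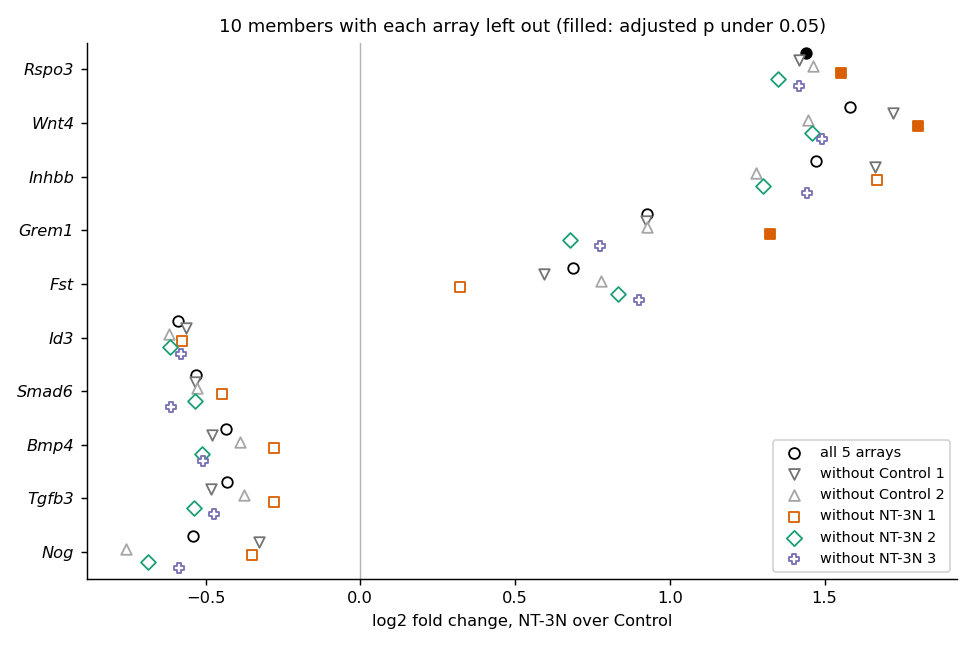
Log2 fold change of the same 10 members with all 5 arrays and with each array left out; filled symbols have a limma adjusted p under 0.05. Rspo3 was called with all arrays and without NT-3N replicate 1, and Wnt4 and Grem1 only without NT-3N replicate 1, while no lower member was called in any of these fits.

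Of 12 further tested probes of 11 members, 11 had the sign of the brightest probe, and the exception was Dkk3, whose fold change was near 0. Rspo3, Wnt4, Inhbb, Grem1, Id3 and Smad6 had 1 probe each, so no second probe bears on them.

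Markers of some tissue layers varied with these values, and their part in them was not tested. The 8 smooth muscle markers were all lower in the NT-3N mice, with a median log2 fold change of -0.29; none was called, and 3 had an unadjusted p under 0.05. Their log2 summed signal was 18.79 and 18.83 on the Control arrays and between 18.35 and 18.68 on the NT-3N arrays, lowest on NT-3N replicate 1, the order seen for Bmp4 and Tgfb3. Of the 10 fibroblast markers, 6 were higher and 4 lower with a median of 0.05, none was called, and 2 had an unadjusted p under 0.05 (Pdpn and Dcn). Their log2 summed signal was 16.36 and 16.22 on the Control arrays and 16.09, 16.63 and 16.48 on the NT-3N arrays. It was lowest on NT-3N replicate 1 and highest on the pair of arrays with high Grem1. The same held for endothelial markers, at 11.05, 11.37 and 11.29 on the NT-3N arrays, and for macrophage markers, at 12.87, 13.40 and 13.36. This order was thus not particular to fibroblast markers. Pdpn, which encodes podoplanin, had log2 signals of 10.33 and 10.66 on the Control arrays and 11.67, 12.13 and 12.16 on the NT-3N arrays, apart on every array. Its log2 fold change was 1.49, similar in size to that of Rspo3, with a limma adjusted p of 0.0672, while Pdgfra, a general marker of colonic fibroblasts, had 0.12 and Vim had -0.02. The log2 summed signal of the 9 epithelial markers ran from 19.80 to 19.99. Of the 7 endothelial markers 6 were higher, with a median of 0.24 and none at an unadjusted p under 0.05. Of the 8 markers of enteric neurons and glia, Gfap was called higher, with a log2 fold change of 1.84, and 6 of the others were lower. Of 4 tested neutrophil markers, S100a8, S100a9 and Mmp9 were not well above background on either Control array. They passed the filter on dim probes only through the NT-3N arrays. Those arrays were higher for all 3, a direction that the filter favoured in advance, so no p-value is given. Csf3r had a log2 fold change of -0.16.

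**Figure D5:**
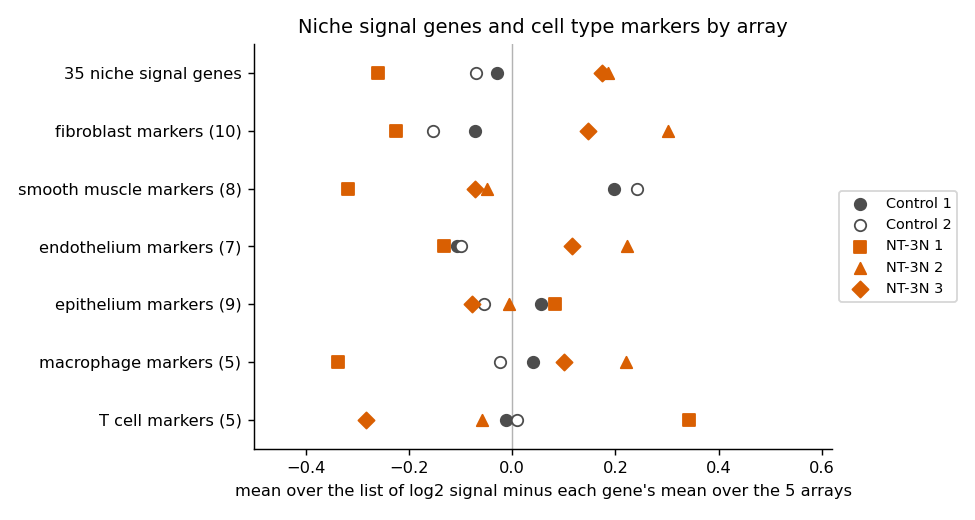
Mean over each list of the log2 signal minus the gene's mean over the 5 arrays, for the niche signal genes and for markers of 6 cell types, with the number of markers tested in brackets. NT-3N replicate 1 was lowest for the niche signal genes (-0.26) and for macrophage (-0.34), smooth muscle (-0.32), fibroblast (-0.22) and endothelial markers (-0.13). It was highest for T cell (0.34) and epithelial markers (0.08). Smooth muscle markers were lower on all 3 NT-3N arrays than on both controls.

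Around the members, 93 other genes of the 3 pathways were listed and 86 were tested. Thbs1 alone was called, and higher. It encodes thrombospondin-1, which can release TGF-beta from its latent form. Its log2 signal was 9.81 and 9.90 on the Control arrays and 11.46, 11.40 and 11.21 on the NT-3N arrays, for a log2 fold change of 1.50 ± 0.11 (SE) with a limma adjusted p of 0.0127. The call was lost at a similar size without Control replicate 1 (limma adjusted p = 0.0678), NT-3N replicate 2 (0.091) or NT-3N replicate 3 (0.0776), and also with the mean of probes (0.0861), no filter on dim probes (0.0718), no intensity trend (0.0917) and the replicate number as a block (0.346). At an unadjusted p under 0.05, 8 of the 86 were higher and 8 lower, where 4.95% and 4.67% of all features were. The 1 call among the 86 stands beside 0.143% of all features called. The median over the 86 was -0.01. These lists too were chosen with earlier results of these data known.

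Of 18 tested WNT receptors and co-receptors, Fzd2 had a log2 fold change of -1.38 (limma adjusted p = 0.172) and Lgr4, an R-spondin receptor, had 0.33 (0.479). Of 12 further WNT ligands, secretion factors and antagonists, Sfrp4 had 1.15 (limma adjusted p = 0.163), Wnt6 had -0.52 (0.401) and Notum, an enzyme that inactivates WNT proteins, had -0.27 (0.504). Of 10 further WNT target genes, Ascl2, a stem cell factor, had -0.84 and Tnfrsf19 had -0.41, both uncalled. With the 3 members, none of the 13 WNT target genes tested was called. Over all features 0.143% were called in either direction, so the lack of a call among 13 genes says little about them.

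In the BMP and TGF-beta lists, Smad4, the SMAD shared by both branches, had a log2 fold change of 0.63 (limma adjusted p = 0.167). Among 10 further BMP modulators, Sostdc1 had 0.67 and Rgmb had -0.46. The TGF-beta receptor genes Tgfbr2 and Tgfbr3 had 0.40 and 0.31. Of the 10 further TGF-beta target genes tested, 4 were higher and 6 lower, with a median log2 fold change of -0.04. Among them Pmepa1 had -0.50 and Skil had -0.35, both uncalled.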

How the data were processed

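Whole-colon RNA of 2 Control and 3 NT-3N mice was measured on 1 array each. The authors extracted spot values with Agilent Feature Extraction 11.0.1.1, and the deposited scanner files hold a background-subtracted intensity per spot, not scaled between arrays. The authors also deposited log2 values of 37380 probes, quantile-normalized; these served as an alternative. The replicates are separate mice per the design text.

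Control spots and between 69 and 184 outlier spots per array, of 59305, were left out. Processed signal was log2-transformed, averaged per probe and quantile-normalized, as the methods of the study describe. Probes well above background on at least 2 of 5 arrays, with values on both controls and at least 2 NT-3N arrays, were kept. Accessions were matched to symbols in RefSeq (GRCm38.p6), naming 32994 of 56605 probes; the brightest probe stood for a gene. The arrays were designed on another build, so no probe coordinates are given.

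The comparison was fitted in R 4.3.3 with limma 3.58.1 (lmFit, then eBayes with an intensity trend; tests two-sided), and p-values of the 32917 features were adjusted by Benjamini and Hochberg's method. The study's methods name a local-pooled-error test, which was run as an alternative. In data simulated with 32910 features, 200 of them changed, 4-fold changes were found in 74.8% of cases by limma and 84.6% by the local-pooled-error test. For 2-fold changes the shares were 33% and 43.6%, and 3.61% and 52.5% of their calls were false. The simulated spreads came from limma's own fitted variance model, alike in both groups, with features independent. Over all features the real median SD was 0.116 over the 2 Control arrays and 0.174 over the 3 NT-3N arrays. A median SD tends to be lower with fewer arrays, so these 2 values are not directly comparable. These rates therefore do not rank the tests on the real arrays. The number of arrays limits the precision.

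The members and lists were chosen with earlier results of these data known. Full values are given for members with an unadjusted p under 0.05, or with groups that do not overlap and a log2 fold change of at least 0.5 in size; of each pathway list, the called genes and up to 3 with the smallest unadjusted p under 0.05 are named. One result that this rule would name is not reported here. Ctgf was looked up under its current symbol Ccn2, and Trac was not matched. Marker genes named beyond this rule were chosen after their values were seen. Alternatives covered scaling, background correction (normexp with an offset of 50), the deposited log2 values, the dim-probe filter, the variance model, array weights, the probe rule, the test, the replicate number as a block and leaving out each array. Replicate numbers did not pair the mice.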

Additional observations from a re-analysis of the deposited data

How the results depend on the processing

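Over 17 alternatives Rspo3 kept a log2 fold change of 1.35 to 1.55 and an unadjusted p under 0.05 in all 17, and was called in 10. Wnt4 (called in 3), Inhbb (1) and Id3 (1) kept an unadjusted p under 0.05 in all 17, Smad6 in 16, Bmp4 in 10 and Grem1 and Tgfb3 in 9. Of the features, 2 were called higher and 0 lower with no filter on dim probes and with no intensity trend, 124 and 46 with array weights, and 192 and 156 by the local-pooled-error test; lower calls numbered 11 with the deposited values, 13 with probes above background on all arrays and 15 with robust variance. Members called higher were 0 with no filter and no trend, and 3 with array weights (1 lower) and the local-pooled-error test; pathway genes called higher were 0 with no filter, no trend and the mean of probes, 2 with array weights and 3 by the local-pooled-error test (2 lower). Lower members with an unadjusted p under 0.05 were 2 with median scaling, no filter, no trend and the local-pooled-error test. With 1 array left out, features called ranged from 0 to 114 higher and from 0 to 16 lower, members called higher from 0 to 3, members with an unadjusted p under 0.05 from 3 to 6 higher and from 2 to 6 lower, and pathway genes called higher from 0 to 2; where a single Control array was left, its spread was taken to be that of the other group. The cause was not tested. The replicate numbers share only a number: deviations of same-numbered arrays correlated at 0.129 and 0.0357. With the replicate number as a block, no feature, member or pathway gene was called (0 higher and 0 lower), and Rspo3 had 1.42 with a limma adjusted p of 0.491; 2488 features had an unadjusted p under 0.05. Of the 35 members, 17 with no call changed sign in some alternative and 18 in none. Under the block Rspo1 was -0.37, Dkk3 -0.10, Inhba -0.030 and Tgfb2 -0.11. With array weights the log2 fold changes were 0.019 for Wnt5b, 0.038 for Bmp5, 0.22 for Bmp6, 0.084 for Bmp7, -0.078 for Chrd and 0.0089 for Tgfb1. By the local-pooled-error test they were 0.11 for Bmp5, 0.076 for Bmp6, 0.019 for Bmp7 and 0.040 for Tgfb1. With normexp they were -0.019 for Dkk3, 0.0099 for Bmp6, 0.0026 for Bmp7 and -0.018 for Tgfb2. Dkk3 was -0.011 with the mean of probes, and Bmp7 was 0.014 with median scaling. With 1 array left out the ranges crossed 0 for Wnt5b (-0.18 to 0.051), Rspo1 (-0.37 to 0.88), Sfrp2 (-0.81 to 0.051), Dkk2 (-0.73 to 0.22), Dkk3 (-0.10 to 0.19), Lef1 (-0.075 to 0.32), Nkd1 (-0.039 to 0.36), Bmp2 (-0.045 to 0.47), Bmp5 (-0.25 to 0.13), Bmp6 (-0.32 to 0.31), Bmp7 (-0.21 to 0.17), Chrd (-0.11 to 0.18), Chrdl1 (-0.33 to 0.0030), Smad7 (-0.35 to 0.0041), Inhba (-0.15 to 0.44), Tgfb1 (-0.17 to 0.056) and Tgfb2 (-0.11 to 0.21).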
